A study of Mus musculus with 6 samples.

Results

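Translation factors were read in polyadenylated RNA of mouse soleus, a postural leg muscle. The members are the genes whose symbol starts with Eif1 to Eif6, Eef1 or Eef2 and whose mean level over the 6 libraries was at least 0.5 FPKM (fragments per kilobase of transcript, scaled between libraries by the authors). Of 21572 gene symbols 65 matched the name rule and 64 passed the level, which Eif4e1b missed at 0.00591 FPKM. The name rule brings in genes that are not translation factors in the strict sense: Eif2c1 to Eif2c4 are the older symbols of the Argonautes, the proteins that carry small RNAs, Eef1e1 encodes a scaffold protein of the tRNA synthetase complex, and Eef2k and the Eif2ak genes encode kinases that act on factors.

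All mice were adult C57BL/6. There were 3 groups of 2 libraries each: soleus of wild-type (WT) mice with its nerve intact (innervated), soleus of WT mice denervated for 3 days, and soleus denervated for the same 3 days from mice labelled Dach2-/-/Hdac9-/-, here called DKO-labelled. Dach2 acts as a co-factor of transcription, Hdac9 is a histone deacetylase, and the design text asks which genes depend on them. No innervated DKO-labelled muscle was analysed here, so genotype is compared within denervated muscle only. The labels do not say how many animals a library pooled, or whether the libraries of a group came from separate animals, so p-values measure the spread between libraries, which may be technical.

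Initiation factors bring the small ribosomal subunit, the initiator tRNA and the capped mRNA together. eIF2 carries the initiator tRNA and eIF2B recharges it with GTP, eIF3 is the large scaffold on the small subunit, and the eIF4F group binds and unwinds the cap region, a step that 4E-binding proteins block. Elongation factors then deliver each charged tRNA (eEF1A) and move the ribosome along (eEF2). Of the 2 genes for eEF1A, Eef1a2 is the form of adult muscle and nerve and Eef1a1 that of most other and of immature tissues.

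Libraries held 25529434 to 46305449 assigned fragments. The first principal component of log2 expression set innervated apart from denervated muscle (71.7% of the variance); on the second (13.1%) denervated WT replicate 2 stood apart at 45.0 against -29.4 to 8.77 for the others. Summed muscle fibre markers (10 genes) were at 35519 and 38574 FPKM in the innervated pair, 17657 and 16745 in the denervated WT pair and 14795 and 14665 in the DKO-labelled pair, and 5 of the 9 tested fell on denervation. Acta1, the main actin of skeletal muscle, was listed at 0 in all 6 libraries, unlike what a muscle would give, whereas Ckm was at 8479 and 8812 FPKM in innervated WT. The reason for the 0 is not clear from the sources used here, and Acta1 adds nothing to the summed level. Endothelial markers fell at 5 of 5, Schwann cell markers at 4 of 6, smooth muscle and pericyte markers at 4 of 5, adipocyte markers at 4 of 4 and fibroblast markers at 1 of 5. Of macrophage markers 1 of 8 rose. Of 3 tested neutrophil markers only S100a8 rose on denervation, from 2.16 and 5.72 to 25.2 and 57.9 FPKM, and it was at 86.1 and 119 in the DKO-labelled pair, where it made up most of the summed level of 93.1 and 121. S100a9 was at 1.93 and 6.55 FPKM, then 4.42 and 13.4, then 5.96 and 2.39, and Retnlg at 0.206 to 1.84 over all libraries. Between genotypes 0 of these 3 were called and 1 lay above 0. Of 6 lymphocyte markers 5 lay below 0.5 FPKM in every library. Markers of several of these cell types moved with the comparison that follows, and the part of the cell types in it was not tested. In whole muscle, fewer cells of a type and less RNA per cell cannot be told apart.

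Translation factor RNA was at a higher relative level in denervated than in innervated WT soleus. Of the 64 members 27 rose, 2 fell and 35 did not pass (edgeR's quasi-likelihood test, Benjamini-Hochberg adjusted p under 0.05 over 12247 genes, two-sided). Over all genes tested 14.4% rose and 14.3% fell, and 28.7% passed in either direction, against 45.3% of the members. The counts by complex below stand against the same shares, and in small complexes they cannot be told from them. Those that rose included the RNA helicase Eif4a1, the ribosome biogenesis and anti-association factor Eif6, the translation repressor Eif4ebp1 and 10 subunits of eIF3; those that fell were Eef1a2 and the eEF2 kinase Eef2k. The rises ran from 1.49-fold to 4.90-fold with a median of 2.04-fold. The median log2 change was 0.48 over the members (25th to 75th percentile 0.16 to 1.0) and 0.00 over all genes tested.

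Without regard to the test, 54 of 64 members lay above 0 (84.4%, against 50.1% of all genes tested). In 43 members both denervated WT libraries were above both innervated ones in FPKM (67.2%, against 32.7%), and in 7 both were below (10.9%, against 38.5%). The members' summed level was 4470 and 4632 FPKM in the innervated pair, 6163 and 7461 in the denervated WT pair and 6272 and 6942 in the DKO-labelled pair. As a share of all assigned fragments the members took 1.23% and 1.17%, then 2.0% and 2.29%, then 2.08% and 2.26%. On both scales every denervated library was above both innervated ones. The share is not corrected for differences in composition between libraries. The TMM scaling factors of edgeR were 0.90 and 0.85 in the innervated pair, then 1.07 and 1.03, then 1.09 and 1.09. Part of the rise in share is therefore one that genes in general have with library totals as the only scaling.

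The calls needed both innervated libraries. Without innervated WT replicate 1 only Eef1a1 of the 27 was still called higher, and without replicate 2 none was; in such a fit the lone innervated library is taken to vary like the other groups. The median log2 change of the members in those fits stayed between 0.38 and 0.62, as in all 6 that leave out a library. The denervated WT libraries also differed from each other: the members' median was 0.29 higher in replicate 2 than in replicate 1 on the log2 scale, against -0.02 over all genes tested, and 25 of the 27 risen members were higher in replicate 2. Within the 2 runs of consecutive sample numbers, each holding 1 library per group, the median change was 0.42 for the first and 0.60 for the second, and 51 members lay above 0 in both runs (79.7%, against 39.7% of all genes tested). The labels do not call the runs a batch.

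**Figure D1:**
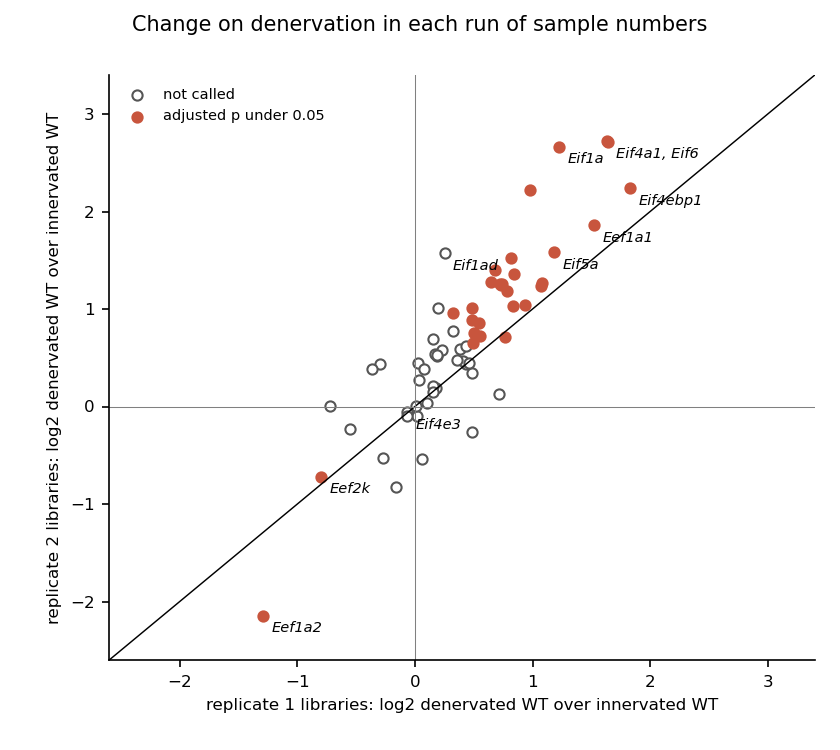
Log2 change of each of the 64 members on denervation in WT, in the first run of sample numbers (x axis) against the second (y axis); filled points have an edgeR adjusted p under 0.05 and the diagonal marks equal values. Most points lie right of and above 0, and 50 of 64 lie above the diagonal, with Eef1a2 and Eef2k below 0 in both runs.

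**Figure D2:**
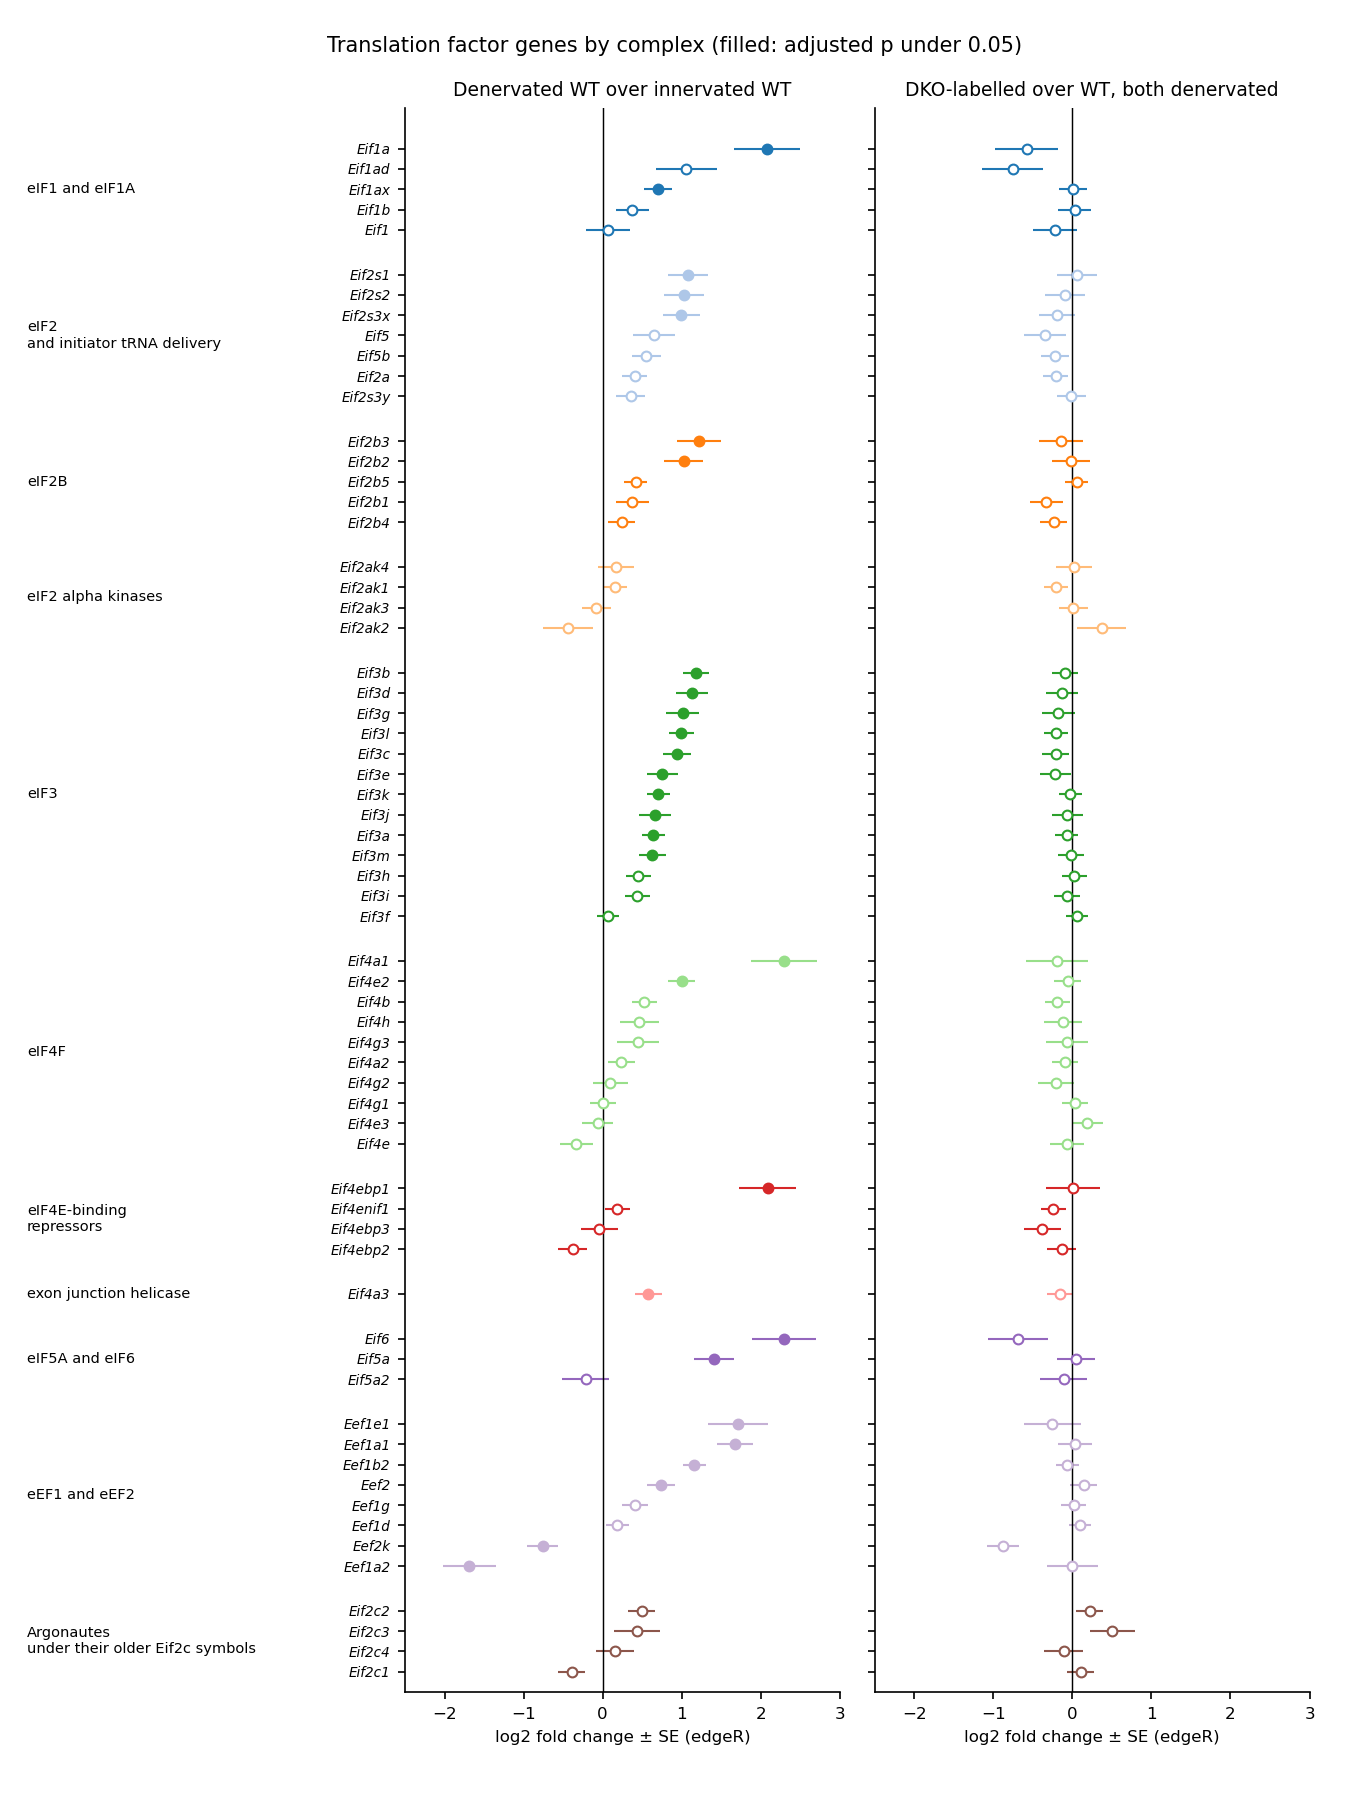
Log2 change ± SE (edgeR) of the 64 members by complex, for denervated against innervated WT and for DKO-labelled against WT, both denervated; filled points have an adjusted p under 0.05. On denervation the members of eIF3 all lie right of 0 and Eef1a2 lies farthest left; between genotypes no point is filled.

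The elongation factors changed in opposite directions. Eef1a2 (2:180882396-180891720 on mm9, the whole locus as the files list it) was at 653 and 755 FPKM in the innervated pair, 254 and 160 in the denervated WT pair and 254 and 144 in the DKO-labelled pair. All 4 denervated libraries lay below both innervated ones. It fell by 1.68 ± 0.34 on the log2 scale (SE; 3.21-fold, edgeR adjusted p = 0.0156). Eef1a1 (9:78326260-78329531 on mm9) was at 346 and 248 FPKM, then 965 and 858, then 887 and 986, and again no denervated library overlapped an innervated one. It rose by 1.67 ± 0.22 (3.19-fold, edgeR adjusted p = 0.00571), and it kept its call in 16 of 17 alternatives, all but the fit without innervated WT replicate 2.

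Set against each other in a library, Eef1a2 exceeded Eef1a1 by 1.89 and 3.04 times in innervated WT, and was at 0.263 and 0.186 of it in the denervated WT pair and 0.286 and 0.146 in the DKO-labelled pair. Eef1a2 thus went from 65.4% and 75.2% of the pair's FPKM to 20.8% and 15.7%, and was 22.2% and 12.7% in DKO-labelled muscle. The ratio differed 10.8-fold between denervated and innervated WT, with no overlap; with 2 libraries against 2 the exact two-sided permutation test can give no p below 0.333, which is the value here. The sum of the pair was 1000 and 1003 FPKM in the innervated pair, 1218 and 1018 in the denervated WT pair and 1141 and 1130 in the DKO-labelled pair. The summed level thus ranged far less than either gene. As TMM-scaled fragment counts (CPM) the sum was 2550 and 2537, then 3227 and 2718, then 3038 and 3024, so all denervated libraries were above the innervated ones on both scales, by a small margin in denervated WT replicate 2. Fragments of Eef1a1 were fractional in 5 of 6 libraries, so the authors' counting divided some between entries, and the values of this pair carry that uncertainty.

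The start regions of these 2 genes are shown because many translation factor mRNAs begin with an oligopyrimidine tract, a C followed by a run of C and T that links their translation to mTORC1 signalling. Bases are from RefSeq on GRCm38.p6, 20 before and 20 from the annotated start on, 5′ to 3′ on the gene's strand, with the tract in capitals where a C within 4 bases of the start was followed by at least 5 pyrimidines. Eif2s3x and Eif2s3y, the X and Y copies of eIF2 gamma, and Eif3f and Eif3l, subunits of eIF3 with unlike changes, are shown for comparison.
Eef1a1: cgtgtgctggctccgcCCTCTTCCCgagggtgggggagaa
Eef1a2: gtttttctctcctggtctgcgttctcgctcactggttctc
Eif2s3x: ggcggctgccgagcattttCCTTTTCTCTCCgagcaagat
Eif2s3y: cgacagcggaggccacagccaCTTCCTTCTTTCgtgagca
Eif3f: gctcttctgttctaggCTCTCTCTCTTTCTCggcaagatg
Eif3l: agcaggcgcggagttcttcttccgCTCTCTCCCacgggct
They lie at chr9:78481705-78481744 (minus strand), chr2:181156996-181157035 (minus), chrX:94212632-94212671 (minus), chrY:1010575-1010614 (plus), chr7:108934395-108934434 (plus) and chr15:79075203-79075242 (plus). Such a tract stood at the annotated start of 8 of the 51 members with a promoter window in RefSeq (15.7%) and of 10.4% of all genes in the table. The genes of that table were not filtered by level in soleus, as the members were, so the 2 shares are not of like sets. Of the 8, 3 rose on denervation, with a median log2 change of 0.39, against 19 of the 43 without it, at 0.55. Eef1a1, with a tract of 9 bases, rose and Eef1a2, without one in this window, fell, but Eif3f, with one of 15 bases, was at 0.07. An annotated start may not be the one used in muscle, and a match is a description only.

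The exchange and translocation factors went up, unlike Eef1a2. Eef1b2, the exchange factor that reloads eEF1A with GTP, was at 93.5 and 92.1 FPKM in the innervated pair, 195 and 213 in the denervated WT pair and 198 and 202 in the DKO-labelled pair, and rose 2.23-fold (edgeR adjusted p = 0.00499). Eef2, the translocase, was at 558 and 549, then 897 and 837, then 890 and 960, and rose 1.67-fold (edgeR adjusted p = 0.0245). The other subunits of the exchange complex, Eef1g and Eef1d, lay above both innervated libraries in every denervated one, at log2 changes of 0.41 and 0.18 that did not pass (edgeR adjusted p = 0.0995 and 0.357). Eef1e1 was at 11.2 and 10.7 FPKM in the innervated pair, 22.3 and 49.4 in the denervated WT pair and 27.2 and 34.3 in the DKO-labelled pair. It rose by 1.71 ± 0.38 (3.27-fold, edgeR adjusted p = 0.0203), with 0.98 in run 1 and 2.22 in run 2.

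Eef2k encodes the kinase that phosphorylates and slows eEF2. It was at 16.4 and 20 FPKM in the innervated pair, 8.96 and 11.3 in the denervated WT pair and 5.92 and 4.87 in the DKO-labelled pair, so the 3 groups did not overlap and the DKO-labelled libraries were lowest. On denervation in WT it fell by 0.76 ± 0.20 on the log2 scale (1.69-fold, edgeR adjusted p = 0.0323), a call lost in 4 of 17 alternatives, among them scaling by library totals only. Eef2k and its substrate Eef2 thus changed in opposite directions in the same libraries.

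**Figure D3:**
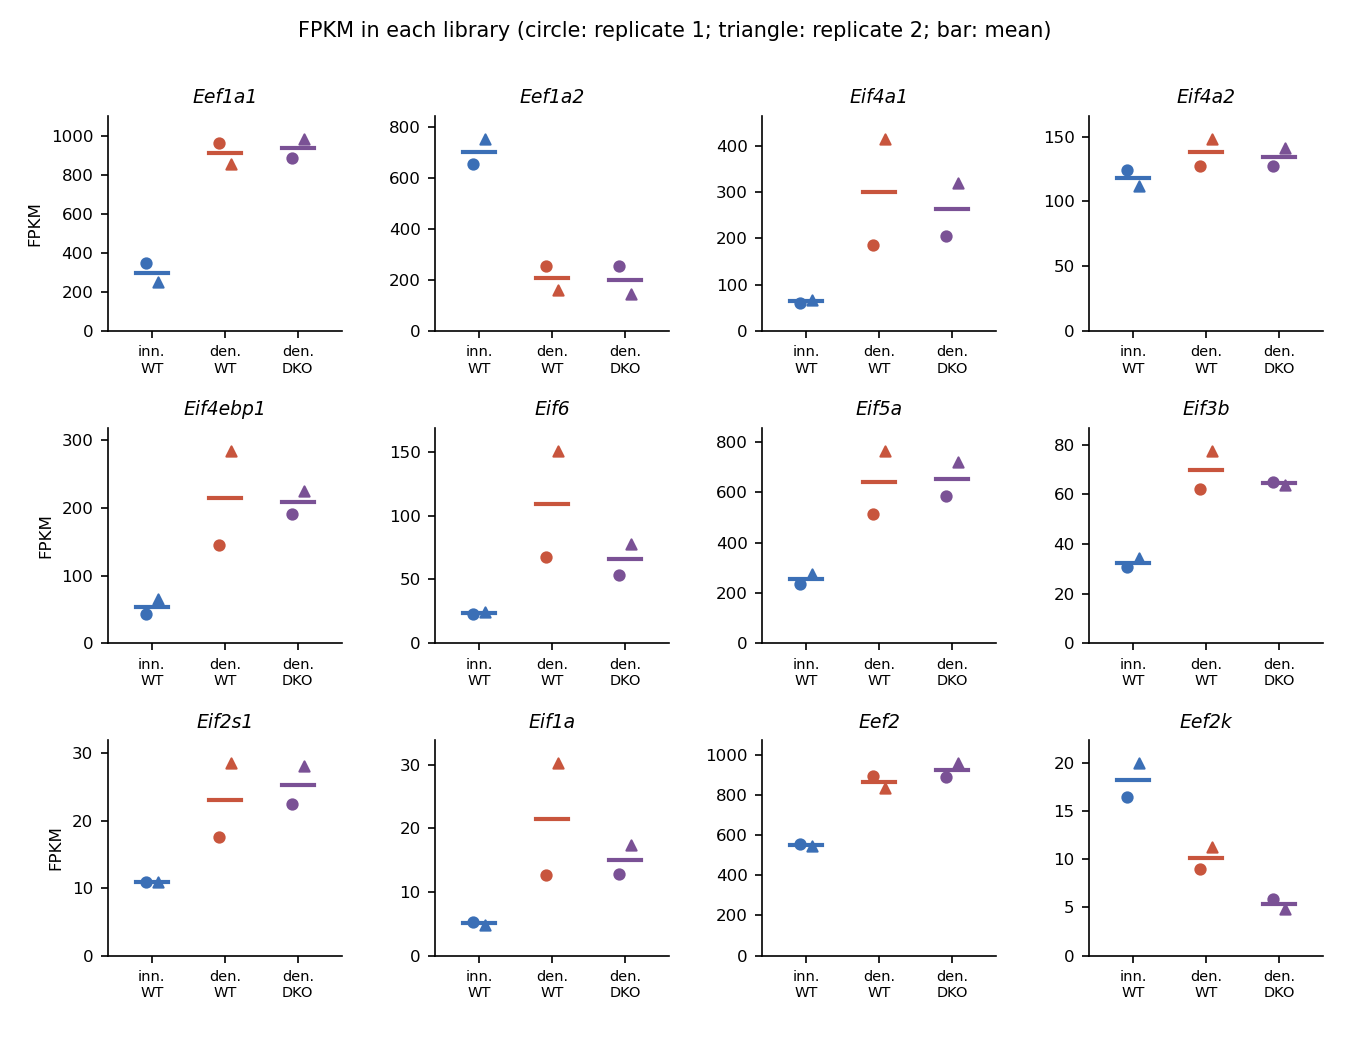
FPKM of 12 members in each of the 6 libraries, linear axes from 0; circles are replicate 1, triangles replicate 2 and bars the mean of 2. Eef1a2 and Eef2k are lower and Eef1a1, Eif4a1, Eif4ebp1 and Eif6 higher in every denervated library than in both innervated ones.

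Among the factors that open the small subunit for scanning, Eif1a (an eIF1A copy on an autosome) was at 5.33 and 4.78 FPKM in the innervated pair, 12.7 and 30.2 in the denervated WT pair and 12.8 and 17.4 in the DKO-labelled pair. It rose by 2.08 ± 0.41 (4.22-fold, edgeR adjusted p = 0.0156), and its X-linked relative Eif1ax, at 46.0 and 46.2, then 63.8 and 83.2, then 72.9 and 79.5, rose 1.62-fold (edgeR adjusted p = 0.0295). The Eif1ax call was lost in 6 of 17 alternatives. Fragments of Eif1a were fractional in all 6 libraries, so its level is uncertain against Eif1ax. Eif1, which guards start codon choice, was at 307 and 325 FPKM against 232 and 406, so the innervated libraries lay inside the denervated range. Its log2 change was 0.07, and that of Eif1b was 0.37 (edgeR adjusted p = 0.874 and 0.212).

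For each of the 3 subunits of eIF2 a gene rose. For the gamma subunit the X copy passed the test and the Y copy did not. Eif2s1, the alpha subunit whose phosphorylation halts initiation, was at 10.9 and 11 FPKM in the innervated pair, 17.6 and 28.5 in the denervated WT pair and 22.5 and 28.1 in the DKO-labelled pair. The beta subunit Eif2s2 was at 40.6 and 45.1, then 67.9 and 106, then 75.2 and 96.2. Both were above the innervated libraries in all 4 denervated ones, and rose 2.12-fold and 2.05-fold (edgeR adjusted p = 0.0252 and 0.0274). For the gamma subunit, Eif2s3x went from 27.0 and 27.6 to 42.0 and 65.1 FPKM and rose 1.99-fold (edgeR adjusted p = 0.0239). The Y copy Eif2s3y was at 38.8 and 35.6 FPKM, then 44.2 and 51.4, then 44.0 and 55.9 in the DKO-labelled pair. It too was above both innervated libraries in every denervated one. In WT it was 0.35 ± 0.18 higher on the log2 scale and did not pass (edgeR adjusted p = 0.176). Whether the copies differ in their change was not tested. As the sequences above show, both annotated starts carry a 12-base pyrimidine tract. Eif5, Eif5b and Eif2a, which act on the initiator tRNA complex or deliver the tRNA, were at 0.65, 0.55 and 0.41 and did not pass.

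For eIF2B, the exchange factor of eIF2, 2 of 5 subunits rose. Eif2b3 was at 12.1 and 12.9 FPKM in the innervated pair, 20.9 and 35.4 in the denervated WT pair and 22.8 and 29.1 in the DKO-labelled pair (2.33-fold, edgeR adjusted p = 0.0231). Eif2b2 was at 21.8 and 24.1, then 34.2 and 53.8, then 38.2 and 46.5 (2.04-fold, edgeR adjusted p = 0.0259). For both, every denervated library was above the innervated ones, and the DKO-labelled libraries lay inside the range of denervated WT. Eif2b4 overlapped between innervated and denervated WT, at 28.7 and 30.8 against 28.7 and 37.4. Eif2b1, Eif2b4 and Eif2b5 had log2 changes of 0.37, 0.24 and 0.42. The 4 kinases of eIF2 alpha, which respond to haem lack (Eif2ak1), double-stranded RNA (Eif2ak2), endoplasmic reticulum stress (Eif2ak3) and amino acid lack (Eif2ak4), had 0 called members and a median of 0.04. Eif2ak2 had the smallest p of them, at 1.78 and 1.64 FPKM against 1.57 and 0.899 (log2 -0.44 ± 0.31, edgeR adjusted p = 0.319).

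The eIF3 complex had the most risen members, 10 of 13, and all 13 were above 0, with a median log2 change of 0.70. Eif3b, a core subunit, was at 30.8 and 34.2 FPKM in the innervated pair, 62.3 and 77.5 in the denervated WT pair and 65.0 and 63.9 in the DKO-labelled pair. Eif3d, a subunit that can itself bind the cap, was at 29.9 and 30.7, then 51.1 and 73.8, then 53.7 and 59.2. Neither overlapped between innervated and denervated muscle, and they rose 2.27-fold and 2.19-fold (edgeR adjusted p = 0.00636 and 0.0121). Eif3g, Eif3l, Eif3c, Eif3e, Eif3k, Eif3j, Eif3a and Eif3m rose by between 0.63 and 1.01 on the log2 scale.

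Eif3f was the subunit with the smallest change. It was at 87.7 and 95.2 FPKM in the innervated pair, 91.3 and 93.2 in the denervated WT pair and 90.8 and 97.6 in the DKO-labelled pair, a range shared by all groups (log2 0.07 ± 0.14, edgeR adjusted p = 0.713). Eif3f is known as a target of the muscle ubiquitin ligase atrogin-1, and its RNA was among the 2 most abundant of the complex in innervated muscle. Eif3h and Eif3i were at 0.45 and 0.44 (adjusted p = 0.0801 and 0.0812). The most abundant subunit, by FPKM, exceeded the least abundant 3.13 and 3.41 times in innervated WT, 2.46 and 2.43 times in denervated WT, and 2.25 and 2.79 times in DKO-labelled libraries, so the subunits' levels lay closer together in every denervated library. Over the alternatives the median of the complex stayed between 0.57 and 0.96, while its count of risen members ranged from 0 to 12.

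In the cap-binding eIF4F group 2 of 10 rose, where 14.4% of all genes tested rose. Eif4a1, a helicase that unwinds leader sequences, was at 61.2 and 66.1 FPKM in the innervated pair and 185 and 415 in the denervated WT pair. In the DKO-labelled pair it was at 206 and 319. All denervated libraries were above the innervated ones, although those of 1 group differed by more than 2-fold in denervated WT. It rose by 2.29 ± 0.42 (4.90-fold, edgeR adjusted p = 0.0118), by 1.64 in run 1 and 2.72 in run 2. Its close relative Eif4a2 was at 125 and 112 FPKM, then 127 and 149, then 127 and 142 (log2 0.24, edgeR adjusted p = 0.319). Eif4a2 thus made up 67.1% and 62.9% of the pair's FPKM in the innervated pair, 40.8% and 26.3% in the denervated WT pair and 38.2% and 30.7% in the DKO-labelled pair, a ratio chosen after its values were seen. Fragments of Eif4a2 were fractional in all 6 libraries and its locus overlaps other entries.

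The cap-binding proteins differed among themselves. Eif4e2, a cap-binding relative of eIF4E that does not bind the eIF4G scaffold well, was at 18.6 and 18.7 FPKM in the innervated pair, 35.1 and 48.4 in the denervated WT pair and 39.5 and 40.2 in the DKO-labelled pair (2-fold, edgeR adjusted p = 0.0106). Eif4e itself was at 34.1 and 31.2, then 21.1 and 31.3, then 25.3 and 26.8, with a denervated library inside the innervated range (log2 -0.33, edgeR adjusted p = 0.271). The Eif4e2 to Eif4e ratio was 0.546 and 0.598 in the innervated pair, 1.66 and 1.54 in the denervated WT pair and 1.56 and 1.5 in the DKO-labelled pair, so the order of the 2 genes turned. This ratio too was chosen after its values were seen. The scaffold Eif4g1 was at 95.5 and 108 against 91.6 and 102, and its relatives Eif4g2 and Eif4g3 at log2 0.10 and 0.45, none of which passed. Eif4b, a helicase co-factor, was at 0.53 (adjusted p = 0.0523) and Eif4h at 0.46. Eif4a3, the helicase of the exon junction complex, rose 1.49-fold (edgeR adjusted p = 0.0449), a call lost in 8 of 17 alternatives.

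Of the proteins that hold eIF4E off the scaffold, 1 of 4 rose, where 14.4% of all genes tested rose. Eif4ebp1 (8:28370798-28386128 on mm9) was at 43.1 and 64.7 FPKM in the innervated pair, 145 and 284 in the denervated WT pair and 191 and 226 in the DKO-labelled pair, with no overlap between innervated and denervated muscle. It rose by 2.09 ± 0.36 (4.25-fold, edgeR adjusted p = 0.0103), by 1.83 and 2.24 in the 2 runs. Eif4ebp2 was at 44.0 and 47.3, then 28.7 and 38.1, then 28.0 and 31.1, below innervated muscle in all 4 denervated libraries (log2 -0.38, adjusted p = 0.16). The Eif4ebp1 to Eif4e ratio was 1.26 and 2.08 in the innervated pair, 6.89 and 9.08 in the denervated WT pair and 7.54 and 8.42 in the DKO-labelled pair. RNA levels say nothing of the phosphorylation that governs these repressors.

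Eif6, which keeps the large ribosomal subunit from joining early and serves in its assembly, was at 22.6 and 24.4 FPKM in the innervated pair, 67.5 and 151 in the denervated WT pair and 53.2 and 78.1 in the DKO-labelled pair. Its rise in WT matched that of Eif4a1 in size, at 2.29 ± 0.40 (4.90-fold, edgeR adjusted p = 0.0105). Eif5a, the factor that carries hypusine and eases stalled peptide bonds, was at 235 and 274, then 513 and 765, then 585 and 719, and rose 2.65-fold (edgeR adjusted p = 0.0111). Its copy Eif5a2 lay between 0.412 and 0.595 FPKM in every library. The Argonautes had 0 of 4 called on denervation in WT. The most abundant, Eif2c2, was at 5.20 and 5.66 FPKM against 6.59 and 8.12 (log2 0.49 ± 0.17, edgeR adjusted p = 0.0690).

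**Figure D4:**
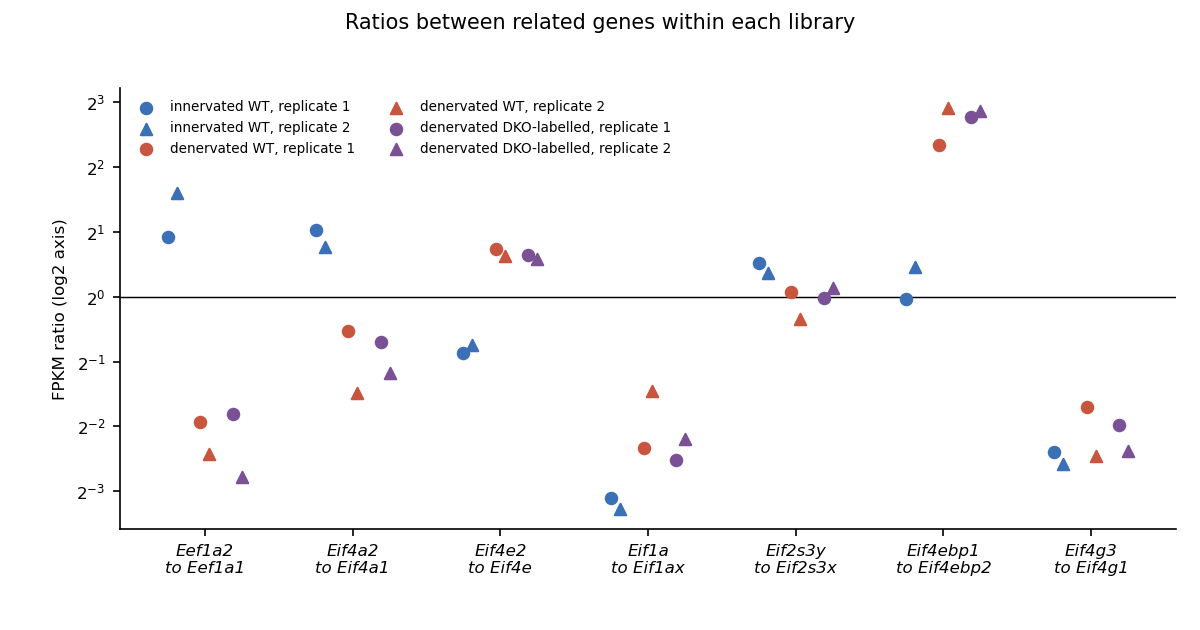
Ratios of 7 pairs of members in each library on a log2 axis; circles are replicate 1 and triangles replicate 2. The Eef1a2 to Eef1a1 and Eif4a2 to Eif4a1 ratios lie above 1 in innervated WT and below 1 in all denervated libraries.

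Between genotypes, in denervated muscle, no member passed the test. Against denervated WT, 0 of 64 members were called in DKO-labelled muscle by edgeR, where 0.0408% of all genes tested (5 of 12247) were called. At an unadjusted p under 0.05 there was 1 member, Eef2k (1.56%, against 6.11% of all genes tested). The log2 differences ran from -0.88 to 0.51, with a median of -0.08, against -0.02 over all genes, and 21 members lay above 0 (32.8%, against 46.4%). Both DKO-labelled libraries were above both WT ones in 2 members (3.12%, against 14.7%) and below in 9 (14.1%, against 15.1%). A p that misses the threshold does not show that the genotypes have the same level.

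Eef2k, whose values stand above, was lower in DKO-labelled than in WT denervated muscle by 0.88 ± 0.20 on the log2 scale (edgeR unadjusted p = 0.0036, adjusted p = 0.372). The direction was the same in both runs, at -0.56 and -1.18, and in all 17 alternatives. Of the 17 alternatives only DESeq2 called it (adjusted p = 0.024). The share of all genes that DESeq2 called between genotypes is not given here, so this call cannot be set against it. Eif1ad, an eIF1A-domain protein, was at 16.3 and 40.2 FPKM in the denervated WT pair and 15.9 and 17.4 in the DKO-labelled pair, so its difference of -0.76 (adjusted p = 0.914) rests on denervated WT replicate 2. Without denervated WT replicate 1 it was -1.26 with an adjusted p of 0.040, and without replicate 2 it was 0.05. Eif6, with 53.2 and 78.1 against 67.5 and 151, differed by -0.69 ± 0.38 (adjusted p = 0.937), and Eif2c3, with 0.639 and 1.02 against 0.574 and 0.556, by 0.51 ± 0.29 (adjusted p = 0.947). For Eef1a1, Eef1a2 and Eif4ebp1 the differences were 0.03 ± 0.22, 0.00 ± 0.33 and 0.01 ± 0.35.

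The members' median difference between genotypes was 0.01 in run 1 and -0.20 in run 2, which holds denervated WT replicate 2. Leaving out 1 library at a time moved the median between -0.24 (without denervated WT replicate 1) and 0.08 (without denervated WT replicate 2), so its sign rests on that group's libraries. Set against innervated WT, DKO-labelled denervated muscle had 26 members higher and 2 lower, where 15.2% of all genes tested were higher and 16.2% lower (31.4% in either direction), with a median of 0.41 over the members and 0.01 over all genes. In 43 members both libraries were above both innervated ones (67.2%, against 36.4%), and in 10 below (15.6%, against 40.9%). That comparison shares its innervated libraries with the one in WT, and in it genotype and denervation cannot be told apart. Its 2 lower members were Eef1a2, at -1.68, and Eef2k, at -1.63, against -1.68 and -0.76 in WT.

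The genes around these factors were read from 6 lists grouped by role, and their counts stand against 14.4% of all genes tested that rose and 14.3% that fell. On the list of signalling around mTORC1, the kinase complex that drives initiation, 8 of 26 genes rose on denervation in WT and 1 fell, with a median log2 change of 0.25. The list holds genes that act on mTORC1 and other kinases of initiation, not only genes that mTORC1 acts on. Mknk2, a kinase that phosphorylates eIF4E, was at 151 and 187 FPKM in the innervated pair, 523 and 814 in the denervated WT pair and 497 and 577 in the DKO-labelled pair, and rose by 2.09 ± 0.27 (4.27-fold, edgeR adjusted p = 0.005). Akt2 rose by 1.30 ± 0.19 (edgeR adjusted p = 0.007), and Akt1, Mtor itself, its inhibitor Deptor, Pdpk1, Rps6kb1 and Rps6 rose too. The gene that fell, Pdk1, is by symbol the mitochondrial pyruvate dehydrogenase kinase, not the kinase upstream of Akt, which is Pdpk1. The largest change on the list, that of Ddit4l, did not pass (log2 -2.78 ± 1.01, edgeR adjusted p = 0.082). Ddit4l was at 45.4 and 33.6 FPKM in the innervated pair, 9.86 and 1.47 in the denervated WT pair and 4.67 and 0.819 in the DKO-labelled pair.

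Of 15 regulators of the cap, the poly(A) tail and eIF4, 3 rose and 0 fell, with a median of 0.16. Pabpc1, the poly(A)-binding protein that joins the tail to eIF4G, was at 24.4 and 22.3 FPKM, then 42.9 and 76.8, then 49.8 and 42.8, and rose 2.61-fold (edgeR adjusted p = 0.017). Pdcd4, an inhibitor of eIF4A, rose by 0.69 ± 0.16 (adjusted p = 0.024), and the helicase Dhx29 rose as well. Of 8 genes of eIF2 dephosphorylation and the integrated stress response only Dnajc3, an inhibitor of the eIF2 kinases, rose, by 0.57. Release, recycling and reinitiation factors rose at 6 of 8 with a median of 0.90. Abce1, which splits ribosomes after termination, rose by 1.44 ± 0.34 (2.70-fold, edgeR adjusted p = 0.026), the release factor Etf1 by 1.03 ± 0.26 (adjusted p = 0.032), and Gspt1, Denr, Mcts1 and Mcts2 rose too.

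Among 8 tested genes of hypusine, diphthamide and selenocysteine use 1 rose, Dph5 of the diphthamide pathway that modifies eEF2. It was at 3.77 and 3.41 FPKM, then 5.81 and 19.4, then 7.54 and 9.99 (log2 1.86 ± 0.54, edgeR adjusted p = 0.045). Of 10 mitochondrial translation factors 3 fell, 0 rose and 7 did not pass, with a median of -0.36; 2 of the 10 lay above 0, and 14.3% of all genes tested fell. Tufm, the mitochondrial counterpart of eEF1A, was at 60.9 and 67.0 FPKM, then 37.7 and 31.5, then 37.9 and 34.1, below both innervated libraries in every denervated one. It fell by 0.80 ± 0.15 (edgeR adjusted p = 0.014), as did the initiation factors Mtif3 and Mtif2, at -0.71 and -0.64. Between genotypes 0 genes of the 6 lists were called.

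Promoter windows, 250 bases before to 50 after each annotated start in RefSeq (GRCm38.p6), were found for 51 of 64 members. The E-box CACGTG, bound by Myc and related factors and the same on both strands, stood in 12 of 51 members (23.5%) and in 8.09% of all genes in the table. These 27025 genes were not filtered by level in soleus, as the members were, so the 2 shares are not of like sets. A gene with several windows counted if any held the motif. Whether the members differ from other genes expressed in soleus was not tested. The stretches below are shown because they belong to 4 members with unlike changes: Eif4a1 and Eif5a, which rose strongly, Eef2, which rose, and Eef2k, which fell. Each has 30 bases, 5′ to 3′ on the gene's strand, with the E-box in capitals.
Eif4a1: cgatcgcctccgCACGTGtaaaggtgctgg
Eif5a: aaggggcggggtCACGTGtgtgcgtcatcc
Eef2: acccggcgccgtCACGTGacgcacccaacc
Eef2k: cccggggacggcCACGTGagcccgggcgtg
They lie at chr11:69672595-69672624 (minus strand), chr11:69921443-69921472 (minus), chr10:81176576-81176605 (plus) and chr7:120842788-120842817 (plus). Counted from the annotated start, the first base of the E-box is at -189 for Eif4a1 and -43 for Eef2. For Eef2k it is at -31 of the first of its 3 annotated starts, and its other windows hold none. For Eif5a it is at -74 of the second of its 6 annotated starts, and window 6 holds another E-box. Of the 12 members with an E-box 5 rose, with a median log2 change of 0.42, against 17 of the 39 without one, at 0.55. The E-box thus stood in the windows of members that rose, of Eef2k, which fell, and of members that did not pass, such as Eif4g1 and Eif4e. A match is a description only, not a site of binding.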

How the data were processed

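Polyadenylated RNA of 6 soleus libraries in 3 groups of 2 was read from 1 deposited table per library, with groups from the sample titles and replicates numbered in accession order. Build mm9 and, with no roles, Cuffdiff (version 2.0.2), TopHat2 (version 2.0.3), Bowtie2 (version 2.0.0.7), Trim Galore (version 0.2.1) and CASAVA (version 1.8.2) are listed in the submitters' processing notes. For annotation, strand use and each tool's role, nothing is given in the sources used here. The tables hold, per the file headers, FPKM made by the authors, a signal of externally scaled fragments, and raw fragments, which are estimated counts. The authors' scaled signal was the raw fragments times 1 factor per library and was not used in the tests. Entries of 1 symbol were summed.

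Estimated counts were rounded and tested with edgeR 4.0.16 (R 4.3.3; quasi-likelihood, TMM scaling, all 6 libraries in 1 fit, mean FPKM at least 0.5, 12247 genes, 3 residual degrees of freedom). An adjusted p under 0.05 is a call, and SE is the log2 change over the square root of F. Alternatives (17 per comparison) were limma 3.58.1 with pseudocounts 0.5 and 1, quantile normalization, DESeq2 1.42.0, other scalings and filters, the runs as a block, the compared groups alone, and leaving out each library. The fit was tested on simulated data. Named were Eif4ebp1, Eef1a1, Eef1a2, Eif2s3x and Eif2s3y, in each complex the up to 2 called members of largest rise and of largest fall or else that of smallest p, between genotypes the 4 of smallest p, and up to 2 called genes per list; other members have short values. The members and lists were chosen with earlier results of these data known. Fragments were fractional in some library for 12 members and 12 loci overlap another entry, so close copies and overlapping genes are uncertain.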

Additional observations from a re-analysis of the deposited data

How the results depend on the processing

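Shares of all genes called are given only for the edgeR fit described above. Counts of called members under the alternatives have no such share beside them, so a moved count may follow that of all genes. For denervated against innervated WT, 29 members were called (27 higher, 2 lower, median 0.48). Leaving out 1 library gave 0 to 41 called, 0 to 37 higher, 0 to 4 lower and medians of 0.38 to 0.62. Library totals as the only scaling gave 42 higher, 1 lower and a median of 0.74, where the median of all genes moved to 0.27. For DKO-labelled against denervated WT, DESeq2 called 1 member, Eef2k, which was lower, and leaving out 1 library gave 0 to 1 called and lower and medians of -0.24 to 0.08. For DKO-labelled against innervated WT (28 called, 26 higher, 2 lower, median 0.41), leaving out 1 library gave 2 to 35 called, 1 to 31 higher, 1 to 4 lower and medians of 0.34 to 0.50. Library totals only gave 40 higher and a median of 0.74 (0.33 over all genes), and the compared groups alone 4 lower. With the runs as a replicate block 30 members were higher and 2 lower on denervation, 0 differed between genotypes, and 29 were higher and 3 lower in the remaining comparison. The labels do not say that a number marks a shared animal or batch, and deviations from the group means correlated at 0.19, 0.11 and 0.40 between groups. The other counts and medians stayed within 1.5 times or the replicate spread, and no called value changed sign. Between genotypes, where edgeR called no member, signs were not stable: without denervated WT replicate 2 the members' median turned from -0.08 to 0.08, and Eef1e1 and Eif1ad, at -0.25 and -0.76, reached 0.44 and 0.05 over the alternatives. The 10.8-fold change of the Eef1a2 to Eef1a1 ratio stayed within the spread of its libraries in every alternative run. With 2 libraries a group, leaving out 1 of an arm leaves a spread that comes from the other groups only, and small changes of scarce members such as Eif5a2 and Eif2c3 were not resolved.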

Other observations

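Tpt1, a partner of the elongation factors on the list with hypusine genes, differed more between the runs of sample numbers than between groups. It was at 419 FPKM in innervated WT replicate 1 and 29.1 in replicate 2, at 617 and 38.7 in denervated WT, and at 619 and 118 in DKO-labelled libraries. The gene was singled out after its values were seen, and the cause was not tested.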
